A study of Mus musculus with 12 samples.

Results

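The genes described are 8 genes of cholesterol synthesis and its control: Hmgcs1, Idi1, Fdps, Sqle, Lss, Cyp51, Srebf2 and Insig1. They were taken as a named group out of 18193 genes with a single symbol on an Affymetrix mouse expression array. Where a gene had several probe sets, the brightest by mean log2 signal over the 12 arrays stands for it. Total RNA of whole lung was measured, 1 sample per array, in 4 groups of 3 arrays. The groups were wild-type mice of the Balb/c strain and mice labelled PPTA knockout, aged 8 to 10 weeks, sampled 8 h after sham surgery or after cecal ligation and puncture (CLP). CLP opens the cecum to the abdomen and causes sepsis from gut bacteria. PPTA is now called Tac1 and encodes the precursor of substance P. No strain was given for the knockout-labelled mice, so strain and genotype cannot be told apart. Nor do the labels tie the 3 arrays of a group to different animals, and p-values then reflect only how far these samples spread. The working name of the group also covers uptake of low-density lipoprotein (LDL), but no member has that function. Genes of uptake are given below from a separate list.

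Cells make cholesterol from acetyl-CoA through mevalonate, isoprenoid units, squalene and lanosterol. When sterols in the endoplasmic reticulum run low, the transcription factor SREBP-2, the product of Srebf2, is carried to the Golgi, cut and sent to the nucleus, where it raises transcription of these enzyme genes. INSIG proteins hold it back when sterols are plentiful. In the lung, alveolar type 2 cells make and recycle the cholesterol and phospholipid of surfactant, and alveolar macrophages clear surfactant lipid.

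Some facts of the whole data set bear on these values. The Tac1 probe set 1416783_at went against the genotype labels, with signals of 2.80 to 16.1 in wild-type lung and of 337 to 530 in knockout-labelled lung. A second Tac1 probe set, 1431883_at, was between 1.26 and 16.0 on all arrays. The groups are therefore called knockout-labelled below, and each direction between genotypes rests on those labels. Array 3 of knockout-labelled sham was unlike its group, with 646 probe sets at least 2-fold above and 758 at least 2-fold below both other arrays. By the same count, knockout-labelled CLP array 3 had 202 above and 471 below, and array 1 had 92 and 329. Wild-type arrays had 13 to 33 above and 64 to 78 below. Markers of alveolar type 2 cells were high on every array but not equal between groups. Over 7 genes the summed signal in wild-type lung was 43659 to 45794 after sham and 43664 to 44895 after CLP. In knockout-labelled lung it was 37378 to 42395 after sham and 38739 to 44610 after CLP. Between genotypes 2 of 7 were called down after sham and 3 after CLP, with 0 up. Markers of hepatocytes, which make much cholesterol, were near the floor, with a summed signal of 49.1 to 78.3 over 5 genes. The summed signal of 8 alveolar macrophage markers was 1737 to 2216 in wild-type lung, with 0 of 8 called after CLP. In knockout-labelled lung it was 2146 to 9084 after sham, with array 3 the highest, and 8581 to 9405 after CLP, with 7 of 8 called up between genotypes after CLP and 2 after sham. Over 6 cardiac muscle markers the sum was 3135 to 3883 in wild-type lung. It was 9127 to 14157 in knockout-labelled lung after sham and 3963 to 7294 after CLP. Between genotypes 6 of 6 were called up after sham and 1 after CLP. With CLP 6 of 6 were called down in knockout-labelled lung and 0 were called in wild-type lung. The sum of 9 neutrophil markers was 9631 to 15995 after sham and 34501 to 38009 after CLP in wild-type lung, with 6 of 9 called up. In knockout-labelled lung it was 10741 to 26727 after sham and 43395 to 47326 after CLP, with 7 of 9 called up, so these markers move with both CLP comparisons below. The part of these cell types in the results below was not tested, and in whole tissue fewer cells of a type and less RNA per cell cannot be told apart.

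In wild-type lung no member was called changed after CLP. In knockout-labelled lung 1 member, Cyp51, fell after CLP, a call kept in 3 of 12 runs that each left out 1 array. Between genotypes, Idi1 was higher in knockout-labelled lung after both surgeries, Sqle was higher after sham, and Lss was higher after CLP on its brighter probe set. These levels were 1.37- to 1.46-fold those of the wild type. The second tested probe set of Lss differed the other way, by -0.38 and not called, and the mean of both was 0.04, not called. No member's response to CLP differed between genotypes by the test of that difference.

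The mean of the 8 members on each array, as log2 difference from the wild-type sham mean, was 0.02, 0.04 and -0.06 in wild-type lung after sham and 0.09, 0.07 and -0.06 after CLP. It was 0.31, 0.23 and 0.20 in knockout-labelled lung after sham and 0.30, 0.13 and 0.04 after CLP. On the deposited scale the 3 knockout-labelled sham arrays lay above all 6 wild-type arrays, while the knockout-labelled CLP arrays overlapped the wild-type range. These values were not centred on the array medians. The medians were 37.7 to 38.4 in knockout-labelled sham, 35.2 to 36.7 in wild-type sham and 32.4 to 34.1 in wild-type CLP. The separation from wild-type CLP therefore depends in part on the scale used. As means with SD (n = 3), the groups stood at 0.03 ± 0.08 for wild-type CLP, 0.25 ± 0.06 for knockout-labelled sham and 0.16 ± 0.14 for knockout-labelled CLP.

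**Figure D1:**
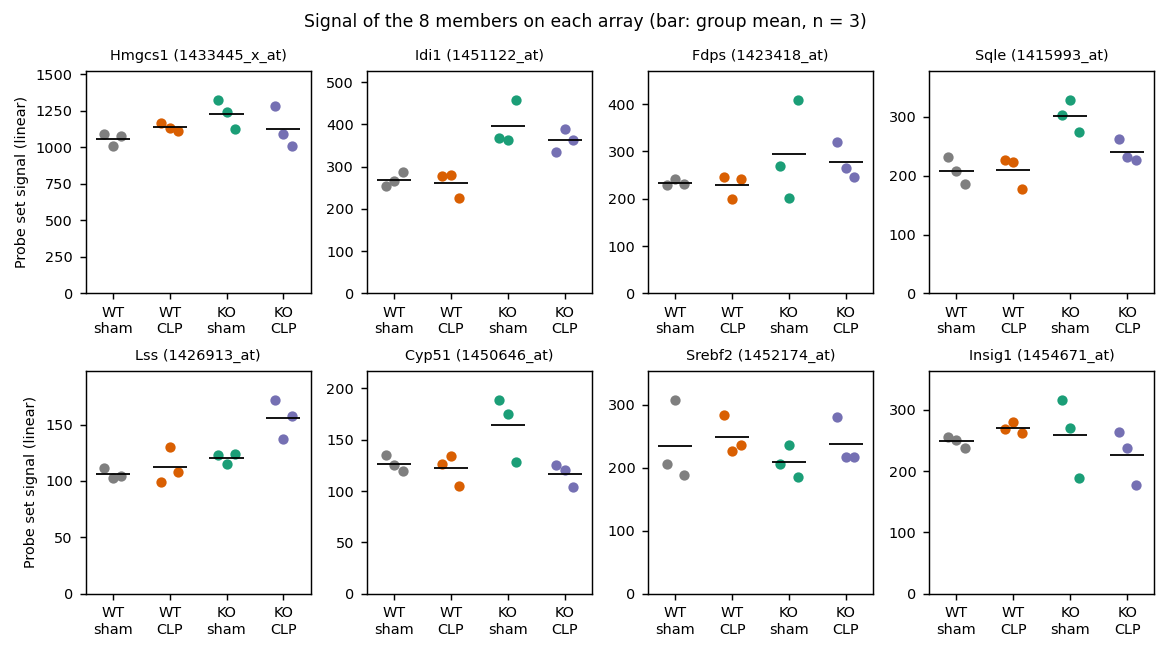
Each panel plots the deposited linear signal (vertical axis, from 0) of 1 member on each of the 12 arrays, by group (WT wild type, KO the knockout-labelled mice, with sham surgery or CLP); points are arrays and the bar is the group mean of 3. Idi1 and Sqle are higher on every knockout-labelled sham array than on any wild-type sham array, Lss is highest in knockout-labelled CLP, and 1 high Fdps point belongs to array 3 of knockout-labelled sham.

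Differences were tested with limma on log2 of the signal plus 3.47, and a gene was called at a Benjamini-Hochberg adjusted p under 0.05 over all probe sets tested. All 8 members passed the filter on low signal, which 11859 genes passed. Each percentage below is the share of those 11859 genes called in the same comparison and direction. For CLP in wild-type lung, 0 of 8 members were called, beside 1.16% of all genes in either direction, and 0 members had an unadjusted p under 0.05. For CLP in knockout-labelled lung, 0 members were called up, beside 11.4%, and 1 was called down, beside 19.9%. Between genotypes after sham, 2 members were called up, beside 4.87%, and 0 down, beside 3.89%. Between genotypes after CLP, 2 members were called up, beside 13%, and 0 down, beside 18.7%. For the difference of the CLP responses, 0 members were called up, beside 1.86%, and 0 down, beside 3.13%. The members' share was thus below that of all genes for CLP in knockout-labelled lung, and above it for rises between genotypes, on counts of 1 and 2 genes.

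Groups without overlap were counted too. The arrays of both groups did not overlap for 2 of 8 members in wild-type CLP against sham, beside 23.8% of all genes, and for 3 in knockout-labelled CLP against sham, beside 38.3%. Between genotypes, 4 members did not overlap after sham, beside 31.3%, and 2 after CLP, beside 49.9%. The median log2 difference of the members was 0.04 for CLP in wild-type lung, where that of all genes was -0.03. It was -0.13 for CLP in knockout-labelled lung, where that of all genes was -0.11. Between genotypes it was 0.24 after sham and 0.09 after CLP, where all genes had 0.01 and -0.06. Centring each array on its median moved the members' median to 0.14 for CLP in wild-type lung, with 8 of 8 above 0 in place of 5, and to 0.10 for CLP in knockout-labelled lung, with 6 above 0 in place of 2. Over all genes these medians moved to 0.08 and 0.11. Between genotypes the centred members had 0.17 after sham and 0.14 after CLP. After sham, 7 of 8 members were above 0 between genotypes, and Srebf2 was below it. The knockout-labelled sham arrays enter both the genotype comparison after sham and the CLP comparison in knockout-labelled lung, so a high value on them raises the first difference and lowers the second.

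**Figure D2:**
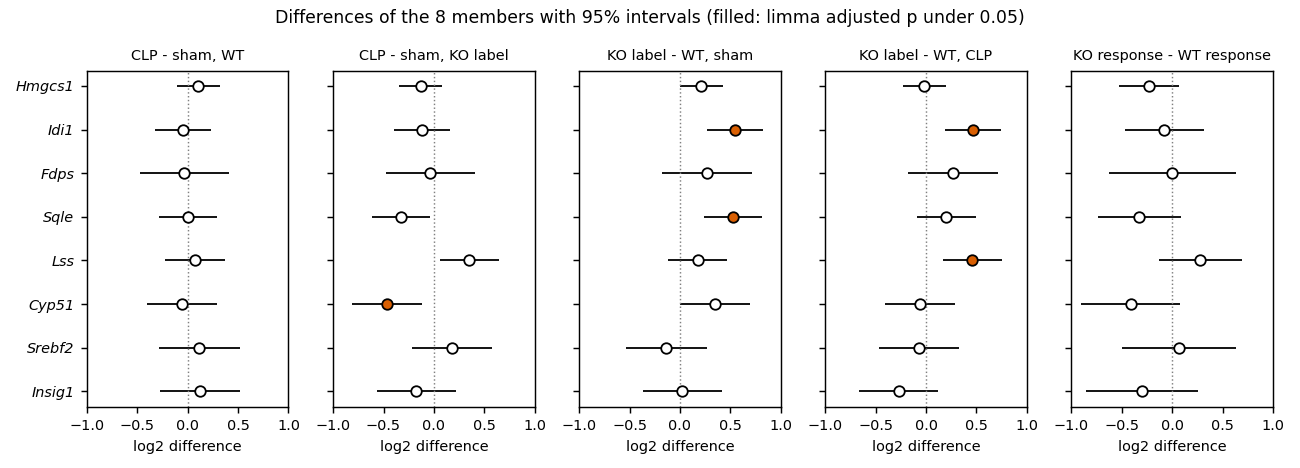
Each panel plots 1 comparison; points are the limma log2 differences of the 8 members and bars their 95% intervals, and a filled point has an adjusted p under 0.05 (WT wild type, KO label the knockout-labelled mice). The wild-type CLP panel has no filled point and its intervals lie between -0.48 and 0.52, while Idi1 is filled in both genotype panels.

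The promoter sequences of 6 members were found in RefSeq, build GRCm38.p6; Sqle and Fdps were not among them. The 150 bases before the start of the gene were searched on both strands for CACNCCAC, a form of the sterol regulatory element to which SREBP-2 binds, for CCAAT, the box of NF-Y, and for GGGCGG, the core of the Sp1 site. CACNCCAC was found in 2 of 6 members (Hmgcs1 and Insig1), beside 3.37% of 32851 promoters of the same length. CCAAT was found in 5 of 6, beside 24.5%, and GGGCGG in 6 of 6, beside 28.6%. A match is a description of the letters and no evidence of binding here. Shown are the promoters of Hmgcs1 and Insig1, which held CACNCCAC but had no called difference, and those of Idi1 and Cyp51, which lacked it and had a called difference. Lss and Srebf2, not shown, lacked it too, and Lss had a called difference while Srebf2 had none. Other forms of the sterol regulatory element were not searched for, so a promoter without CACNCCAC may still hold one. Whether matches go with calls was not tested. Capitals mark matches to CACNCCAC or CCAAT on either strand, none of which overlap, and each sequence reads 5′ to 3′ towards the gene, at chr13:119690201-119690350 on the plus strand, chr5:28071262-28071411 on the plus strand, chr13:8885456-8885605 on the plus strand and chr5:4104698-4104847 on the minus strand.
Hmgcs1: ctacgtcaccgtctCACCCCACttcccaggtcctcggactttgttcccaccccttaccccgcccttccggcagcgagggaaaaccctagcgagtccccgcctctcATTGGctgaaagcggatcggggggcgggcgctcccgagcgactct
Insig1: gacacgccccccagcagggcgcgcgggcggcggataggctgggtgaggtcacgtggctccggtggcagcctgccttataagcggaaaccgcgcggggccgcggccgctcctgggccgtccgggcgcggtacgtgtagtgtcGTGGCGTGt
Idi1: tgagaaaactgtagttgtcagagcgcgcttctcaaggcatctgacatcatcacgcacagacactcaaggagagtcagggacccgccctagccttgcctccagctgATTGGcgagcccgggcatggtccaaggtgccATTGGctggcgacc
Cyp51: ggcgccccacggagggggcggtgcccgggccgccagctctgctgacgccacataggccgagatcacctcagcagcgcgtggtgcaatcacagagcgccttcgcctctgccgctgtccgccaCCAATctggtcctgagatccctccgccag
The match in Hmgcs1 began 136 bases before the start on the gene's strand, and that in Insig1 began 9 bases before it on the opposite strand. Idi1 held 2 CCAAT matches, both on the opposite strand, and Cyp51 held 1 on its own strand.

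Hmgcs1 encodes the cytosolic HMG-CoA synthase, which feeds the mevalonate pathway. Its probe set 1433445_x_at gave signals of 1093, 1008 and 1078 in wild-type lung after sham and 1166, 1136 and 1111 after CLP. In knockout-labelled lung the signals were 1327, 1239.7 and 1128 after sham and 1286, 1095 and 1008 after CLP. The 3 wild-type CLP arrays and the 3 knockout-labelled sham arrays were all above the wild-type sham arrays, but by little, and the knockout-labelled CLP arrays overlapped every other group. The CLP difference was 0.10 ± 0.10 (log2 ± SE) in wild-type lung, limma adjusted p = 0.893, and -0.13 ± 0.10 in knockout-labelled lung, adjusted p = 0.345. The genotype difference after sham was 0.21 ± 0.10, adjusted p = 0.217, and after CLP -0.02. None of these passed the test. The other 3 tested probe sets of Hmgcs1 gave genotype differences after sham of 0.31, 0.28 and 0.25, none of them called. From low to high the group means ran wild-type sham, knockout-labelled CLP, wild-type CLP, knockout-labelled sham. Of neighbours in that order, only knockout-labelled CLP and wild-type CLP were compared, and they did not differ by the test.

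Idi1 encodes isopentenyl diphosphate isomerase, which sets the balance of the isoprenoid units. Its probe set 1451122_at gave signals of 254, 266 and 288 in wild-type lung after sham and 278, 281 and 226 after CLP. The knockout-labelled signals were 367, 363 and 459 after sham and 335, 388 and 364 after CLP. Every knockout-labelled array lay above every wild-type array, whatever the surgery. After sham the genotype difference was 0.54 ± 0.13 on the log2 scale, a 1.46-fold level, with limma adjusted p = 0.020. After CLP it was 0.47 ± 0.13, a 1.38-fold level, with adjusted p = 0.0165. A second probe set of Idi1, 1423804_a_at, was called up as well, by 0.79 ± 0.16 after sham, adjusted p = 0.00964, and by 0.55 ± 0.16 after CLP, adjusted p = 0.0234. Surgery made no called difference to Idi1: the CLP difference was -0.05 in wild-type lung with a 95% interval of -0.32 to 0.23, and -0.12 in knockout-labelled lung with an interval of -0.40 to 0.16. With array 3 of the knockout-labelled sham group left out, the sham call was kept, at 0.44 with adjusted p = 0.0430. It was lost without wild-type sham array 1, at 0.50 with adjusted p = 0.0857, and without array 2, at 0.54 with adjusted p = 0.0722. The CLP call was lost without wild-type CLP array 3, at 0.37 with adjusted p = 0.0756, and without knockout-labelled CLP array 2, at 0.42 with adjusted p = 0.0593. From low to high the means ran wild-type CLP, wild-type sham, knockout-labelled CLP, knockout-labelled sham, and the neighbours within a genotype did not differ by the test.

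Fdps encodes farnesyl diphosphate synthase, whose product is the branch point to sterols, dolichol and prenylated proteins. Its probe set 1423418_at gave signals of 229, 241 and 230.4 in wild-type lung after sham and 247, 199 and 241 after CLP. The knockout-labelled lung gave 269.7, 202 and 409 after sham and 319, 265 and 245 after CLP. The sham group of the latter had the widest spread, with array 3 as the highest of all 12. The genotype difference after sham was 0.27 ± 0.21, adjusted p = 0.485, and it was -0.00015 without array 3. After CLP it was 0.27, with an interval of -0.18 to 0.71. The CLP difference was -0.03 in wild-type and -0.03 in knockout-labelled lung, and no Fdps comparison was called.

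Sqle encodes squalene epoxidase, a rate-limiting step on the way from squalene to sterols. Its single probe set, 1415993_at, gave signals of 232, 207 and 187 in wild-type lung after sham and 226, 224 and 178 after CLP. The signals in knockout-labelled lung were 304, 329 and 274 after sham and 263, 232 and 226 after CLP. The knockout-labelled sham arrays were above all other arrays, and the knockout-labelled CLP arrays overlapped the upper wild-type values. After sham the genotype difference was 0.53 ± 0.13, a 1.44-fold level, with limma adjusted p = 0.0288. The call was lost without wild-type sham array 3, at 0.45 with adjusted p = 0.126, or array 2, at 0.53 with adjusted p = 0.0914, and without knockout-labelled sham array 1, at 0.52 with adjusted p = 0.0709, or array 2, at 0.47 with adjusted p = 0.0927. With only the arrays of these groups in the model, adjusted p was 0.0560. The CLP difference of Sqle in knockout-labelled lung was -0.32 ± 0.13, adjusted p = 0.0863, which was not called, although the arrays did not overlap. It was -0.39 with adjusted p = 0.0468 once array 3 of the knockout-labelled sham group was left out. In wild-type lung the CLP difference was 0.00, with an interval of -0.29 to 0.29. After CLP the genotype difference was 0.20 ± 0.13, adjusted p = 0.281. The test of the difference between the CLP responses gave -0.33 ± 0.19, adjusted p = 0.327.

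Lss encodes lanosterol synthase, which closes the sterol rings. Its probe set 1426913_at gave signals of 112, 103 and 104 in wild-type lung after sham and 99.3, 129.8 and 108 after CLP. The signals of knockout-labelled lung were 123, 115 and 124 after sham and 172, 137 and 158 after CLP, the last group above all other arrays. After CLP the genotype difference was 0.46 ± 0.14, a 1.37-fold level, with limma adjusted p = 0.0237. The change with CLP in knockout-labelled lung was 0.35 ± 0.14, adjusted p = 0.0684, without overlap and not called. It was called when each array was centred on its median, at 0.58 with adjusted p = 0.00517, and after quantile normalization, at 0.49 with adjusted p = 0.0169. A second Lss probe set, 1420013_s_at, went the other way: it gave 97.6, 101 and 116 in wild-type CLP and 86.6, 91.3 and 63.5 in knockout-labelled CLP, a difference of -0.38 ± 0.16, adjusted p = 0.0957. With the mean of both probe sets the difference was 0.04, adjusted p = 0.831, so the Lss result holds for 1 of its 2 tested probe sets. The call was also lost without wild-type CLP array 1, at 0.38 with adjusted p = 0.0976, or array 3, at 0.44 with adjusted p = 0.0731. It was lost as well without knockout-labelled CLP array 1, at 0.38 with adjusted p = 0.0663, or array 3, at 0.45 with adjusted p = 0.0559, and with only the groups compared, adjusted p = 0.0570.

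Cyp51 encodes lanosterol 14-alpha-demethylase, the first step after ring closure. Its probe set 1450646_at gave signals of 136, 125 and 119 in wild-type lung after sham and 127, 134 and 105 after CLP. In knockout-labelled lung they were 189, 175 and 129 after sham and 126, 120.2 and 104 after CLP. Arrays 1 and 2 of knockout-labelled sham were the highest of all 12, and array 3 lay among the wild-type values. With CLP, Cyp51 differed by -0.47 ± 0.16 in knockout-labelled lung, a 0.72-fold level, with limma adjusted p = 0.0445, and this was the single called CLP change among the members. The call was kept without wild-type CLP array 3, knockout-labelled CLP array 1 or knockout-labelled sham array 3, and lost without each of the other arrays. Without knockout-labelled sham array 1 it was -0.36 with adjusted p = 0.157, and without array 3 of that group, which stood apart, -0.63 with adjusted p = 0.00544. Centring the arrays on their medians gave -0.24 with adjusted p = 0.259, and quantile normalization gave -0.35 with adjusted p = 0.130. The other 8 exclusions that ended the call gave adjusted p from 0.0550 to 0.131.

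The genotype difference of Cyp51 after sham was 0.35 ± 0.16, adjusted p = 0.215, and without array 3 it was 0.51 with adjusted p = 0.0418. A dimmer probe set of Cyp51, 1422533_at, gave larger genotype differences. It was above the array median on 7 arrays, among them all 6 knockout-labelled arrays. It thus passed the filter through the group where it was high, and its values are a description and no separate support. In wild-type lung its signals were 29.3, 23.9 and 27.9 after sham and 30.7, 35.1 and 28.03 after CLP, and in knockout-labelled lung 61.2, 65.1 and 58.4 after sham and 46.6, 46.3 and 38.3 after CLP. All 6 knockout-labelled arrays were above all 6 wild-type arrays. The sham difference on it was 1.09 ± 0.18, adjusted p = 0.00225. With the mean of both probe sets the sham difference of Cyp51 was 0.72, limma adjusted p = 0.00819, and so called. That call draws on the dimmer probe set. After CLP the difference was 0.44 ± 0.18, adjusted p = 0.0829. The CLP difference in knockout-labelled lung was -0.47 ± 0.18, adjusted p = 0.0691, the same size as on the brighter probe set.

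Srebf2 encodes SREBP-2 itself. Its probe set 1452174_at gave signals of 206, 308 and 188 in wild-type lung after sham and 284, 227 and 237 after CLP. In knockout-labelled lung they were 205, 236 and 185 after sham and 281, 217 and 217 after CLP. All groups overlapped, and the highest single value was in wild-type sham. The genotype differences were -0.14 after sham and -0.07 after CLP, with intervals of -0.53 to 0.26 and -0.47 to 0.33. On a second probe set, 1426744_at, the knockout-labelled CLP signals were 134, 159.8 and 134 against 188, 238 and 191 in wild-type CLP. These did not overlap, but the difference of -0.51 ± 0.22 was not called, adjusted p = 0.0924.

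Insig1 encodes an endoplasmic reticulum protein that retains the SREBP complex, and it is itself a target of SREBP. Its probe set 1454671_at gave signals of 256, 251 and 238 in wild-type lung after sham and 269, 279.8 and 263 after CLP. In knockout-labelled lung they were 316, 271 and 188 after sham and 264, 238 and 177 after CLP. The wild-type groups were tight and did not overlap, while the knockout-labelled groups were wide and held the highest and the lowest of the 12 values. The CLP difference of Insig1 was 0.12 ± 0.18 in wild-type lung, adjusted p = 0.955, and -0.18 ± 0.18 in knockout-labelled lung, adjusted p = 0.494. The genotype differences were 0.03 after sham and -0.27 after CLP, and none was called.

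Over all 19 probe sets of the members, 15 passed the filter on low signal. Between genotypes after sham, those called up were both of Idi1, that of Sqle and the dimmer one of Cyp51. The last passed the filter through the knockout-labelled arrays, where it was high. After CLP, both of Idi1 and the brighter one of Lss were called up. For CLP itself, none was called in wild-type lung, and the brighter one of Cyp51 was called down in knockout-labelled lung. Probe sets of 1 gene are not independent of each other, so no count of them is compared with all genes.

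**Figure D3:**
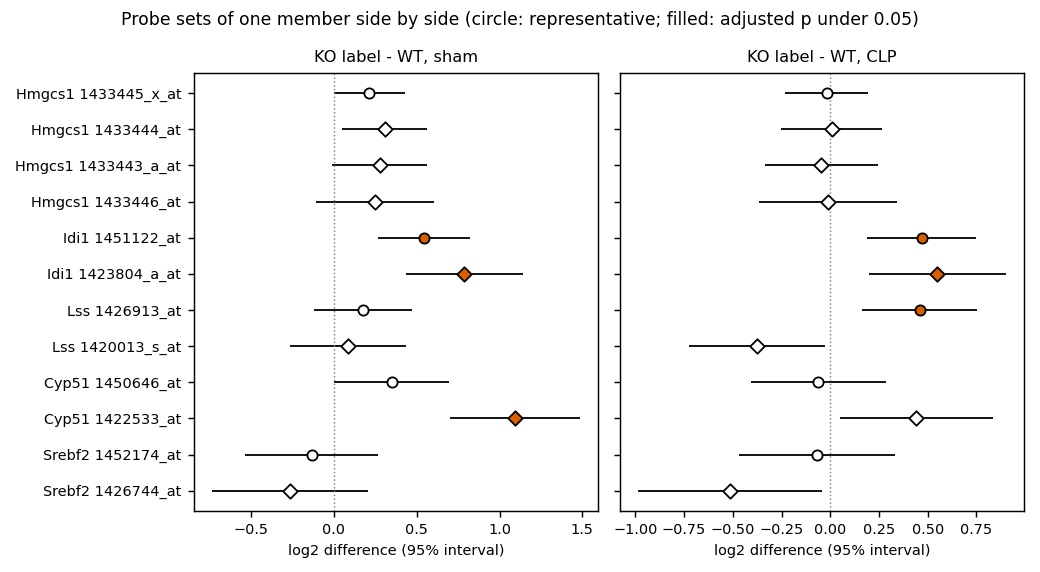
Points are the limma log2 differences between knockout-labelled (KO label) and wild-type (WT) lung for every tested probe set of the 5 members with more than 1, after sham (left) and after CLP (right), with 95% intervals; circles are the representative probe sets, diamonds the others, and filled points have an adjusted p under 0.05. Both Idi1 probe sets are filled on both sides, the Lss pair lies on opposite sides of 0 after CLP, and the dimmer Cyp51 probe set is further to the right than the brighter one after sham.

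For the difference of the CLP responses between genotypes, the members ran from -0.41 for Cyp51 to 0.28 for Lss, with a median of -0.15 beside -0.08 over all genes and 2 of 8 above 0. With arrays centred it was -0.03 beside 0.04, with 4 above 0. The smallest adjusted p was 0.307, and 0 members had an unadjusted p under 0.05. Standard errors reached 0.29, and the 95% intervals ran from -0.90 for Cyp51 to 0.70 for Lss.

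The members did not all rise and fall together over the arrays. The Pearson r of a member's log2 values with the mean of the other 7, over 12 arrays that share the 4 groups, was 0.82 for Sqle, 0.75 for Hmgcs1, 0.50 for Cyp51 and 0.46 for Idi1. It was 0.26 for Lss, 0.19 for Fdps, 0.03 for Insig1 and -0.15 for Srebf2. The genes outside the group most like the mean of the members were Cab39l (r = 0.95), P2rx7 (0.93), Trub1 (0.92), 9030622O22Rik (0.92) and Tnfsf13b (0.92), out of 11851 compared over the same 12 arrays. Each of the 5 had a higher mean signal in both knockout-labelled groups than in either wild-type group. The members' mean, by which they were picked, had the same order, so this follows in large part from the choice. Among the other enzymes of sterol synthesis the closest was Msmo1 at 0.83, at rank 58, and the next was Fdft1 at 0.57.

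The other enzymes of the pathway came from a list of 16, of which 13 were tested. In wild-type CLP 0 of 13 were called, beside 1.16% of all genes, and that share applies to the lists below too. The smallest p were those of Lbr, which reduces a sterol double bond, at 0.24, and Ebp, the sterol isomerase, at -0.10. In knockout-labelled CLP 2 were called up, beside 11.4% of all genes, and 3 down, beside 19.9%, with a list median of -0.04. Pmvk, the phosphomevalonate kinase, rose by 2.18 ± 0.30, adjusted p = 4.91e-04. Sc5d, a late sterol desaturase, differed by -0.54 ± 0.15, adjusted p = 0.0177, and Ebp by -0.35 ± 0.10, adjusted p = 0.0192. Mvk, the mevalonate kinase, at -1.33, and Lbr, at 0.36, were also called and are named here after their values were seen. Mvk kept its call in 3 of 12 runs that left out an array and Lbr in 9 of 12. Without knockout-labelled CLP array 1 Mvk was at -0.77, adjusted p = 0.131, and with array weights at -0.73, adjusted p = 0.190. The other tested probe set of Mvk gave -0.50, not called, and the mean of both gave -0.91. The count of 5 fell to 1 with only the groups compared and to 3 after quantile normalization. The other probe sets of Sc5d gave -0.56, called, and 0.16, not called, and the mean of all 3 gave -0.31, adjusted p = 0.138. Fdft1, uncalled on its brightest probe set at 0.22, was called up at 0.32 with its probe sets averaged. Ebp and Sc5d each lost the call when arrays were centred, at -0.12 and -0.32, and each kept it in 10 of 12 runs that left out an array.

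Pmvk had signals of 180.1, 192 and 195 in wild-type lung after sham and 223, 209 and 264 after CLP. In knockout-labelled lung it had 139, 139.5 and 168 after sham and 352, 792 and 1138 after CLP. The last group was above all others and its arrays lay far apart. The nearest members in the order of steps, Hmgcs1 before it and Idi1 after it, had no called CLP change in the same arrays. They are not its direct neighbours. Mvk, which acts just before Pmvk, was called down in that comparison, with the limits given above. Between genotypes after sham, 1 of 13 enzymes was called up, beside 4.87% of all genes, and 0 down, beside 3.89%. It was Msmo1, which demethylates sterols after Cyp51, by 0.54 ± 0.11, limma adjusted p = 0.00859. Its signals were 300.4, 276 and 279 in wild-type sham and 429, 373 and 450.0 in knockout-labelled sham, without overlap.

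Between genotypes after CLP, 3 of 13 enzymes were called up, beside 13% of all genes, and 3 down, beside 18.7%, with a list median of -0.18. Fdft1, the squalene synthase that acts just before Sqle, was higher by 0.63 ± 0.11, adjusted p = 0.00174. Pmvk was higher by 1.55, adjusted p = 0.00278, and Sc5d was at -0.91, adjusted p = 9.39e-04. Called too, and named after their values were seen, were Msmo1 at 0.42, Mvk at -1.35 and Dhcr7, the last reductase of the pathway, at -0.94. Of these, Mvk kept the call in 7 of 12 runs that left out an array, and it was at -0.80, adjusted p = 0.123, without knockout-labelled CLP array 1. With array weights Mvk was at -0.68, adjusted p = 0.168, and with its probe sets averaged at -0.71, adjusted p = 0.0299. Averaging also called Ggps1, which makes geranylgeranyl diphosphate, up at 0.28, against 0.30 uncalled on its brightest probe set.

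**Figure D4:**
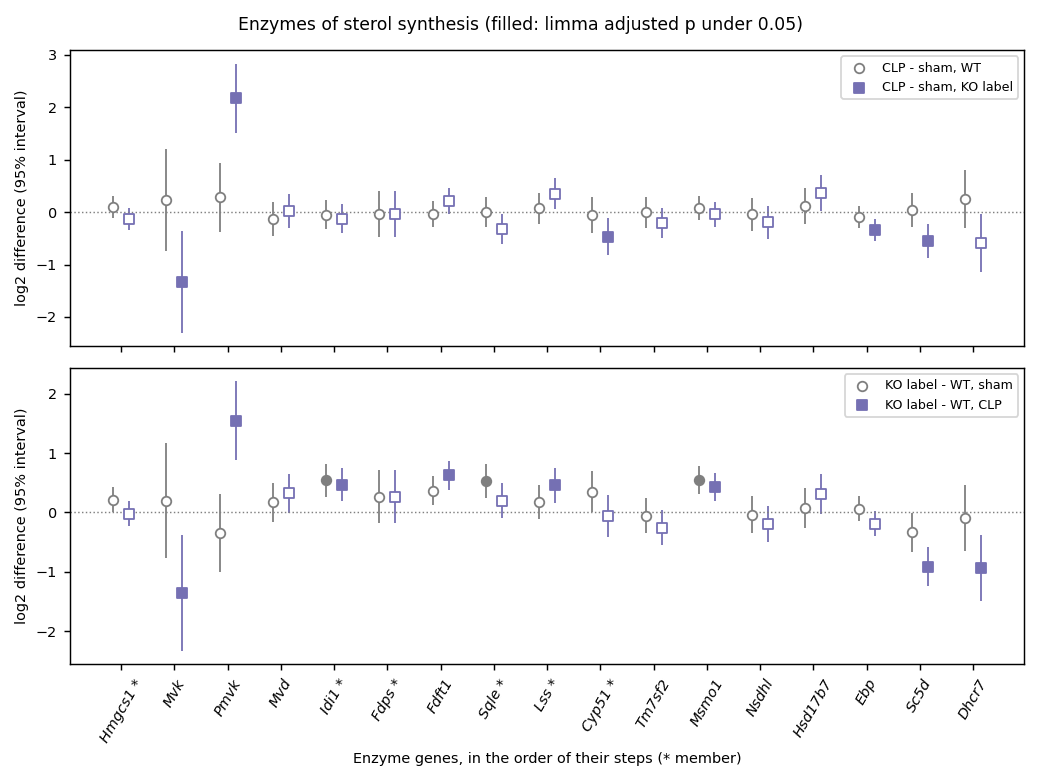
Enzyme genes of sterol synthesis stand along the horizontal axis in the order of their steps, members marked with an asterisk; the vertical axis is the limma log2 difference with its 95% interval, for CLP against sham in each genotype (top) and for knockout-labelled against wild-type lung after each surgery (bottom). Filled points have an adjusted p under 0.05: the wild-type CLP series has none, and Pmvk stands above the others in knockout-labelled CLP.

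The control of SREBP was followed with 6 tested genes out of a list of 7. In both CLP comparisons and between genotypes after sham, 0 of 6 were called, with the shares of all genes as for the sterol enzymes. The smallest p in wild-type CLP were those of Rnf139, a sterol-responsive ubiquitin ligase, at -0.36, and Mbtps1, the protease that makes the first cut in SREBP, at -0.16. In knockout-labelled CLP they were Mbtps1 at -0.26 and Srebf1, the gene of SREBP-1, at -0.34. After sham they were Mbtps1 at -0.26 and Rnf139 at -0.30. After CLP, Insig2, the relative of Insig1, was higher in knockout-labelled lung by 0.68 ± 0.15, adjusted p = 0.00526, and Mbtps1 was at -0.35 ± 0.10, adjusted p = 0.0165. With its probe sets averaged Mbtps1 was at -0.27, adjusted p = 0.219. The Insig2 signals were 267, 276 and 299 in wild-type CLP and 455, 404 and 503 in knockout-labelled CLP, without overlap, where those of Insig1 overlapped.

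For uptake of lipoprotein cholesterol and its release from lysosomes, 8 genes of a list of 11 were tested. In wild-type CLP 0 of 8 were called, with the smallest p for Mylip at 0.36 and Stard4 at -0.14. In knockout-labelled CLP 1 rose, beside 11.4% of all genes, and 0 fell, beside 19.9%. It was Scarb1, the receptor for high-density lipoprotein, by 1.34 ± 0.11, limma adjusted p = 3.56e-05. Wild-type lung gave 531, 584 and 495 after sham and 575, 513 and 564 after CLP, and knockout-labelled lung gave 312, 334 and 349 after sham and 726, 919 and 892 after CLP. The knockout-labelled arrays were below the wild-type arrays after sham and above them after CLP. The difference of the responses was 1.30 ± 0.16, adjusted p = 0.00400, and both other probe sets of Scarb1 gave 1.30 and 1.12, each called.

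Between genotypes after sham, 0 of 8 uptake genes were called up, beside 4.87% of all genes, and 2 down, beside 3.89%. They were Scarb1 at -0.69, limma adjusted p = 0.00207, and Lrp1, a receptor for lipoprotein remnants, at -0.29, adjusted p = 0.0314. After CLP 1 was called up, Scarb1 at 0.61, beside 13% of all genes, and 3 down, beside 18.7%. The latter were Lrp1 at -0.35, Vldlr, the very low-density lipoprotein receptor, at -1.06, and Npc1, which exports cholesterol from lysosomes, at -0.42, the last named after its value was seen. With the mean of its probe sets Lrp1 turned to 0.059 after sham and 0.017 after CLP, neither called. The sham call of Lrp1 was kept in 6 of 12 runs that left out an array, and the call of Npc1 in 4 of 12.

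Efflux, oxysterol and storage genes were tested for 9 of a list of 11. In wild-type CLP 0 of 9 were called, with the smallest p for Ch25h at 0.96 ± 0.29, adjusted p = 0.234, and Cyp27a1 at -0.19. In knockout-labelled CLP 2 rose, beside 11.4% of all genes, and 2 fell, beside 19.9%. Ch25h, which makes 25-hydroxycholesterol, a sterol that holds SREBP back, rose by 2.50 ± 0.29, adjusted p = 1.70e-04. Abca1, the cholesterol exporter, rose by 1.25 ± 0.22, adjusted p = 0.00164, while Cyp27a1, the sterol 27-hydroxylase, was at -0.72 and Nr1h3, the gene of LXR-alpha, at -0.71, the last named after its value was seen. Nr1h3 lost the call with arrays centred, at -0.49 with adjusted p = 0.0614, and both it and Cyp27a1 lost it with only the groups compared, adjusted p = 0.0945 and 0.0790. For Ch25h, wild-type lung gave 21.1, 26.7 and 21.2 after sham and 52.1, 36.9 and 55.9 after CLP, and knockout-labelled lung gave 50.1, 46.9 and 92.5 after sham and 235, 401 and 485 after CLP. The 3 last values stood above all other arrays, in the group where the macrophage markers summed to 8581 to 9405. Array 3 of knockout-labelled sham had a macrophage sum of 9084 as well, with a Ch25h signal of 92.5, the highest of its group. The part of macrophages in the Ch25h signal was not tested.

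Between genotypes, 2 of 9 efflux genes were called up after sham, beside 4.87% of all genes, and 0 down, beside 3.89%. They were Cyp7b1, an oxysterol hydroxylase, at 1.77 ± 0.25, limma adjusted p = 8.12e-04, and Ch25h at 1.27, adjusted p = 0.0178. After CLP 3 were called up, beside 13% of all genes, and 1 down, beside 18.7%. They were Ch25h at 2.82, Cyp7b1 at 1.54, Abca1 at 1.21 and Nr1h3 at -1.0, the last named after its value was seen. For the difference of the responses 0 of 9 were called, beside 1.86% of all genes up and 3.13% down. The smallest p were those of Ch25h at 1.55, limma adjusted p = 0.0552, and Abca1 at 1.09, adjusted p = 0.0681. Both were called, at 1.84 and 1.44, once array 3 of the knockout-labelled sham group was left out, and 1 of the other probe sets of Abca1 was called, at 1.51. The largest of these differences was the 2.82 of Ch25h. The medians of the 9 efflux genes were -0.06 for CLP in wild-type lung and -0.03 in knockout-labelled lung. Between genotypes they were 0.06 after sham and 0.13 after CLP. The CLP and genotype differences of the 8 members lay between -0.47 and 0.54 on their brightest probe sets, and reached 1.09 on the dimmer probe set of Cyp51. Pmvk and Mvk, synthesis enzymes outside the members, differed by more than any member.

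All 10 genes on the fatty acid list, several of them SREBP-1 targets, were tested. In wild-type CLP 0 of 10 were called, with the smallest p for Scd1 at 0.28 and Acaca at 0.26. In knockout-labelled CLP 1 rose, beside 11.4% of all genes, and 3 fell, beside 19.9%. Elovl6, a fatty acid elongase, rose by 1.36. Those that fell included Acss2, which makes acetyl-CoA from acetate, at -1.14, and Acly, which makes it from citrate, at -0.47. The last was Fads1, a desaturase named after its value was seen, at -0.40. With arrays centred, Acly was at -0.24 and Fads1 at -0.18, neither called. After sham 1 was called up between genotypes, beside 4.87% of all genes, and 0 down, beside 3.89%. It was Scd2, a stearoyl-CoA desaturase, at 0.44, limma adjusted p = 0.0272, a call kept in 7 of 12 runs that left out an array. The other probe sets of Scd2 gave -0.60, not called, and 0.70, called, and the mean of all 3 was 0.18, adjusted p = 0.643. After CLP they gave -1.36 and 0.77, both called in opposite directions, where the brightest gave 0.16, not called. After CLP 1 was called up, Elovl6 at 1.33, beside 13% of all genes. Called down were 3, beside 18.7%: Acly at -0.62, Acss2 at -0.73 and Fads1 at -0.47. The other tested probe set of Fads1 was called up in the same comparison, at 0.56 with adjusted p = 0.0480, and after sham, at 0.72. With both averaged Fads1 turned to 0.045 after CLP, not called. Me1, a malic enzyme that supplies NADPH and is named here after its values were seen, had 0.01 after sham and -0.19 after CLP on its brightest probe set, neither called. Its other tested probe set was called up, at 1.41 and 1.01, as was the mean of both, at 0.71 with adjusted p = 0.00368 and 0.41 with adjusted p = 0.0274. The counts of this list between genotypes thus hold for the brightest probe sets. For the difference of the responses, 2 of 10 were called down, beside 3.13% of all genes, and 0 up, beside 1.86%. They were Acss2 at -1.07 ± 0.17, limma adjusted p = 0.0123, and Acly at -0.53 ± 0.13, adjusted p = 0.0380. With probe sets averaged Acly was at -0.50, adjusted p = 0.0598, and Elovl6, at 1.21 and uncalled on its brightest probe set, was called at 1.41. Acss2 and Acly supply the acetyl-CoA from which Hmgcs1 starts, and the same test gave -0.23 ± 0.14 for Hmgcs1, adjusted p = 0.348.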

How the data were processed

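Biotin-labelled cRNA of whole lung was hybridised to Affymetrix arrays, 12 arrays in 4 groups of 3 taken from the labels. Per probe set, the authors deposited a linear signal intensity; GCOS, MAS5 and Affymetrix Expression Console are named in the submitters' processing notes, with no version or order. The mean between the 2% lowest and highest signals was 150.001 on every array, so arrays share that mean. They do not share a median: array medians were 31.1 to 38.4, with every knockout-labelled sham array above all arrays of the other groups. Differences between groups therefore depend in part on the scale used. The number of arrays limits the precision. After 64 control probe sets were left out of 45101, 45037 were converted to log2 of the signal plus 3.47 (10% of the median of array medians), which understates folds of dim genes. Tested were the 24574 above the array median on at least 3 arrays. Symbols came from the platform table (34945 probe sets with 1 symbol, 932 with several, 9160 unnamed), and 34741 matched RefSeq gene IDs, assembly GRCm38.p6. The members and lists were chosen with earlier results of these data known.

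limma 3.58.1 in R 4.3.3 was fitted to all 12 arrays with 4 group means and an intensity trend, with Benjamini-Hochberg adjustment over all probe sets tested; adjusted p-values come from it. The method was tested on simulated data. Text names every member, the 3 smallest p among called genes of each pathway list per comparison (or up to 2 uncalled), and the 5 genes most like the members' mean. Alternatives were quantile normalization, median centring, a pseudocount of 50% of the median, no filter, only the groups compared, the replicate number as a block, averaging all probe sets of a gene, array weights and each array left out. Replicate numbers were not treated as pairs.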

Additional observations from a re-analysis of the deposited data

Results flagged for a closer look

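In 4 genes of the wider lists, and in no member, the response to CLP differed between genotypes by the limma test of that difference (knockout-labelled response minus wild-type response, log2). The 5 lists had 13, 6, 8, 9 and 10 tested genes. Of all genes, 1.86% were called up and 3.13% down in that test, so the 4 genes are no result about the pathway. Scarb1, the receptor for high-density lipoprotein, differed by 1.30 with adjusted p = 0.00400, and it was called in 12 of 12 runs that left out 1 array. Acss2, the acetate-activating enzyme, differed by -1.07 with adjusted p = 0.0123, also in 12 of 12 runs. Pmvk, the phosphomevalonate kinase, differed by 1.89 with adjusted p = 0.0330, but in 3 of 12 runs. Acly, the citrate-cleaving enzyme, differed by -0.53 with adjusted p = 0.0380, but in 2 of 12 runs. With CLP, Scarb1 differed by 0.04 in wild-type and 1.34 in knockout-labelled lung, Pmvk by 0.28 and 2.18, Acss2 by -0.07 and -1.14, and Acly by 0.07 and -0.47.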

How the results depend on the processing

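The count of members called stayed at 0 for CLP in wild-type lung and for the difference of the CLP responses under every alternative run. Between genotypes after sham the count of 2 became 1 with only the groups compared, 3 with probe sets of a gene averaged and 4 when arrays were weighted. It ran from 0 to 3 with an array left out. Averaging added Cyp51, whose dimmer probe set passed the filter through the knockout-labelled arrays. Between genotypes after CLP the count of 2 became 1 with probe sets of a gene averaged or only the groups compared, and ran from 0 to 2 with an array left out. For CLP in knockout-labelled lung the count of 1 became 2 with array weights and 0 with no filter or only the groups compared, and ran from 0 to 2 with an array left out. The array exclusions that lowered a count are named beside each member. With centring or quantile normalization that count was also 1, but the member was Lss, not Cyp51. Centring moved the median of all genes for CLP in knockout-labelled lung from -0.11 to 0.11, and that of the members from -0.13 to 0.10, with 6 of 8 above 0 in place of 2; the other comparisons' shifts stand beside their medians. With the replicate number as a block the counts were the same as without it, 0, 1, 2, 2 and 0 in the order wild-type CLP, knockout-labelled CLP, genotype after sham, genotype after CLP and difference of responses. Same-numbered arrays showed little common deviation (r from -0.10 to 0.12), which gave no sign of a pairing but cannot exclude one. With probe sets of a gene averaged, Lrp1 turned to 0.059 between genotypes after sham and 0.017 after CLP, Fads1 to 0.045 after CLP and Me1 from uncalled to 0.41 after CLP, called; the cause was not tested. Of 312 values of single members under the other alternatives, 299 kept their side of the threshold, 7 lost a call, 6 gained one and 25 uncalled values changed sign. Of 480 with an array left out, 457 kept it, 21 lost a call, 2 gained one and 33 uncalled values changed sign. With 3 arrays a group, an exact permutation test of a single value cannot go below p = 0.1.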
